A study of Mus musculus with 20 samples.

Results

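Nnmt codes for nicotinamide N-methyltransferase, the enzyme that moves a methyl group from S-adenosylmethionine (SAM) to nicotinamide, and it was examined here in mouse liver together with 8 other genes of methyl group metabolism. The 9 genes were chosen by name, and the set was picked because the Nnmt log2 ratio was far lower in mice given 75 mg/kg/day benzo(a)pyrene (BaP) than in controls, so that difference is a description with no test. All probes annotated to these 9 genes, out of 16535 genes named on the array, were taken. This gave 10 of the 41174 probes, 1 for each gene and a second for Pemt. All 10 were among the 27346 probes present above the negative control spots on at least 4 of the 5 arrays of any group, and each was well above background in the liver channel on all 20 arrays.

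Each of 20 male Muta™Mouse animals (transgenic strain 40.6, which carries a lacZ reporter in every group, 25 weeks of age) supplied a liver RNA sample of its own. Groups of 5 received olive oil (controls, replicates 1 to 5) or BaP by daily oral gavage at 25 mg/kg/day (replicates 6 to 10), 50 mg/kg/day (11 to 15) or 75 mg/kg/day (16 to 20) for 28 days, and tissue was taken 3 days after dosing ended. Liver RNA was labeled with Cy5 and hybridized against a Cy3-labeled reference RNA pooled from 11 mouse cell lines on two-color arrays. A value of 1 on the log2 scale therefore means a liver signal at 2 times that of the reference. Because whole liver tissue was used, fewer cells of a type and less RNA per cell cannot be told apart.

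The arrays were spread over 6 slides. Slides 1, 2 and 3 each held 1 array of every dose, slide 6 held 2 control and 2 BaP 50 arrays, and slides 4 and 5 held 1 BaP 25 and 1 BaP 75 array each. Position on the slide followed dose closely, so the effects of position and dose cannot be told apart. Between 51.9 and 67.5% of liver-channel spots were well above background, and the highest value came from control replicate 4, against 51.9 to 54.3% in the other controls. The sample labels name both liver and lungs. All 9 hepatocyte marker genes on the array were well above background on all 20 arrays, whereas 0 of 7 lung epithelium markers were. Of the surfactant genes, Sftpc and Sftpb were well above background on 0 arrays, Sftpa1 on 16 and Sftpd on 19. The Sftpd difference at 75 mg/kg/day was 1.19 ± 0.25 (SE; limma adjusted p = 0.0688), with 5 of 5 mice above all controls. It was 1 of 4 lung markers with a present probe to show no overlap, against 1.52% of present probes. Sftpa1, Scgb1a1 and Ager had differences of 0.05, 0.04 and 0.15 at that dose.

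SAM is the main methyl donor of the cell, and in liver it is made from methionine by the enzyme that Mat1a codes for. Methyltransferases such as those coded by Nnmt, Gnmt, Pemt and Gamt use it and leave S-adenosylhomocysteine, which the Ahcy product splits to homocysteine. Homocysteine is then either remethylated to methionine, in liver partly by the betaine-using enzyme of Bhmt, or passed to cysteine through the enzymes of Cbs and Cth.

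Nnmt varied more between mice than any other member, and its mean was lower at 50 and 75 mg/kg/day than in controls. In controls 1 to 5 its log2 ratio was 0.63, 1.18, 1.33, 0.64 and 2.91, a mean of 1.34 ± 0.94 (SD, n = 5). Only replicate 5 lay clearly above this mean, so a value below it does not set an exposed mouse apart from controls. In BaP 25 replicates 6 to 10 the values were 0.83, 1.01, 0.95, 0.19 and 1.95, with a mean of 0.99 ± 0.63 (SD, n = 5). Control replicate 5 and BaP 25 replicate 10 stood above the other mice of their groups, and the 2 groups overlapped over most of their ranges.

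At the higher doses most mice lay lower. BaP 50 replicates 11 to 15 had Nnmt log2 ratios of 0.01, 0.15, −0.80, 0.04 and 0.88, a mean of 0.06 ± 0.60 (SD, n = 5). BaP 75 replicates 16 to 20 had log2 ratios of 0.86, 0.02, −0.44, −0.68 and −1.33, a mean of −0.31 ± 0.82 (SD, n = 5). In each of these groups 4 of 5 mice were below all 5 controls, and the remaining mouse, replicate 15 or 16, was inside the control range. The plot of Nnmt in each mouse shows these 20 values.

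**Figure D1:**
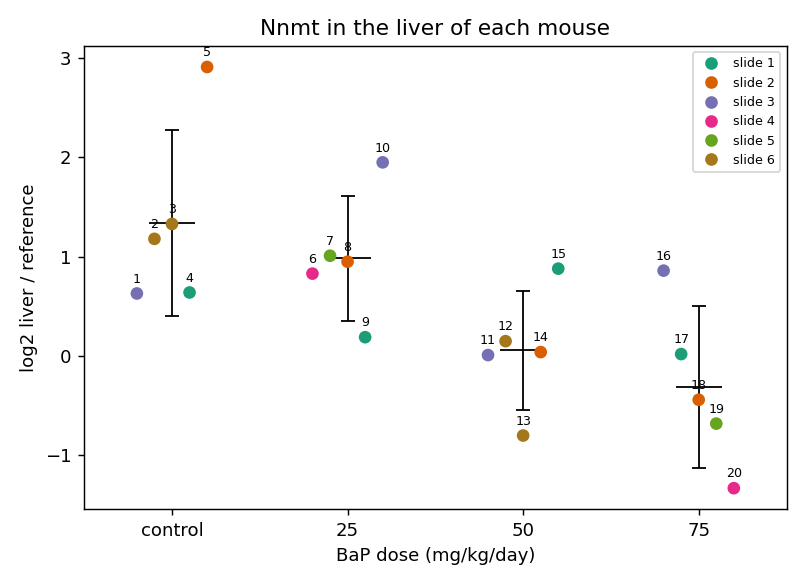
Nnmt log2 ratio of liver over reference RNA (y axis) for each of the 20 mice by BaP dose in mg/kg/day (x axis); points carry replicate numbers, colors mark the slide, and bars are group means ± SD (n = 5). The means are 1.34, 0.99, 0.06 and −0.31, and replicate 15 (0.88) and replicate 16 (0.86) lie among the controls.

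The group means ran from control through BaP 25 and BaP 50 to BaP 75 in descending order, and the ranges of every pair of neighbors in that order overlapped. At 75 mg/kg/day the mean log2 ratio was 1.65 lower than in controls (a difference of −1.65, or 3.14-fold), the third lowest difference among the 27346 present probes. This is the value on which the gene set was selected. At 50 mg/kg/day the difference was −1.28 ± 0.43 (SE; 95% interval −2.18 to −0.38; 2.43-fold lower), and the limma adjusted p over all present probes was 0.676, against an unadjusted p of 0.00736. At 25 mg/kg/day it was −0.35 ± 0.43 (SE; 95% interval −1.25 to 0.55; limma adjusted p = 0.857). The 3 comparisons share the same 5 control arrays.

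Mice of 1 group differed widely for Nnmt. The lowest and highest control differed 4.88-fold, and the BaP 75 mice differed 4.57-fold. The pooled within-group SD of its log2 ratio was 0.76, larger than that of 99.1% of present probes, whose median SD was 0.22. The other members had within-group SDs between 0.20 for the second Pemt probe and 0.39 for Bhmt.

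Control replicate 5 carried part of the Nnmt difference. Without it the control mean log2 ratio was 0.94 ± 0.36 (SD), and the differences at 75, 50 and 25 mg/kg/day became −1.26, −0.89 and 0.04. On the slides that held every dose, Nnmt at 75 mg/kg/day minus control was −0.62 on slide 1, −3.36 on slide 2, which carried control replicate 5, and 0.24 on slide 3. For 50 mg/kg/day the same-slide differences were 0.24, −2.88 and −0.61 on slides 1 to 3 and −1.58 on slide 6.

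The direction of Nnmt was thus not the same on every slide. At 25 mg/kg/day the differences on slides 1 to 3 were −0.45, −1.96 and 1.33. Where BaP 75 and BaP 25 shared a slide with no control, Nnmt was lower at the higher dose, with differences of −2.16 on slide 4 and −1.69 on slide 5. With slide as a block the differences were −0.25, −1.28 and −1.55 at 25, 50 and 75 mg/kg/day.

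For the genes other than Nnmt no difference passed the test. Their 8 genes (9 probes) all had mean log2 ratios above the control mean at each dose, whereas in the liver channel alone, without the reference, 3, 7 and 6 of 8 did at 25, 50 and 75 mg/kg/day. Of all present probes 50.3, 49.2 and 50.6% had log2 ratios above the control mean. The median difference over the 8 genes was 0.24, 0.33 and 0.41 with the reference and −0.10, 0.22 and 0.08 in the liver channel alone. A gene was called when the limma adjusted p was below 0.05 and the fold change above 1.5. At 25 mg/kg/day 0 of 9 genes were called (0% of present probes), at 50 mg/kg/day 0 of 9 (0%), and at the highest dose 0 of the 8 genes tested (0.135%). At an unadjusted p below 0.05, limma gave 2, 3 and 5 of the 8 genes at these doses in turn, against 7.81, 6.7 and 11.2% of present probes.

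**Figure D2:**
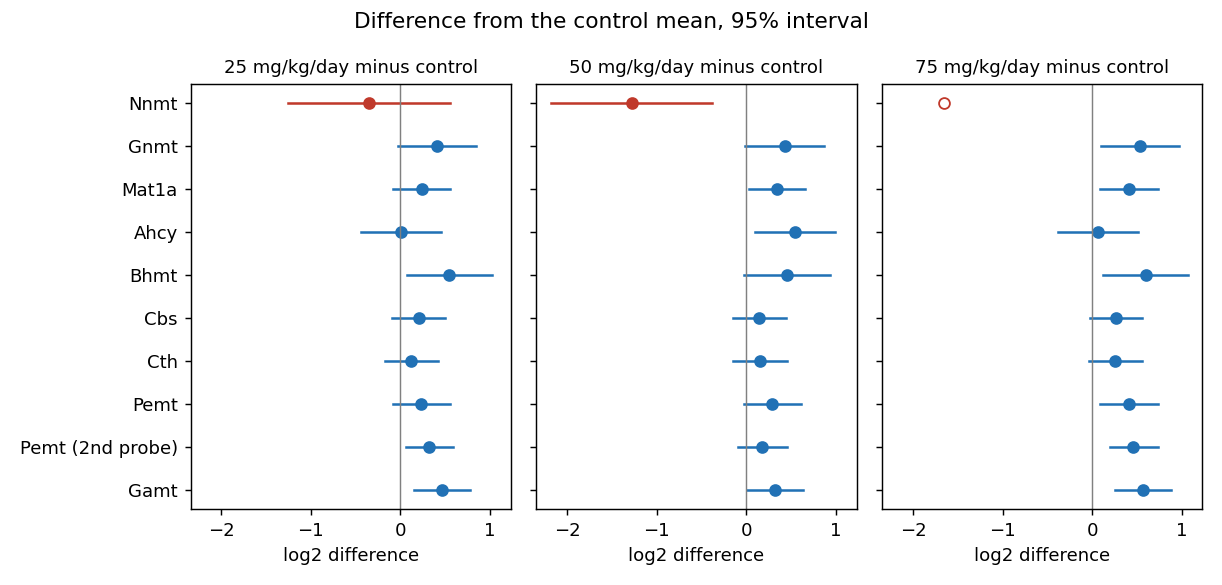
Difference from the control mean in log2 ratio (x axis) for each probe (y axis) at 25, 50 and 75 mg/kg/day; dots are differences of group means (n = 5 each) and lines their 95% intervals. Nnmt at 75 mg/kg/day, on which the set was selected, is an open circle with no interval at −1.65, while the other probes at that dose lie between 0.07 and 0.60, although in the liver channel alone only 6 of the 8 other genes are above 0.

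At 75 mg/kg/day, where Nnmt was not tested, Gamt and the second Pemt probe had the lowest adjusted p-values of the set. Like Nnmt and Gnmt, both genes code for enzymes that use SAM. Gamt codes for the enzyme that forms creatine from guanidinoacetate. Its log2 ratio in the 5 controls was 3.58, 3.57, 3.83, 3.13 and 3.04, and in BaP 75 replicates 16 to 20 it was 3.90, 3.65, 3.97, 4.13 and 4.34. Of the BaP 75 mice 4 of 5 were above every control, and replicate 17 was below control 3. The difference was 0.57 ± 0.15 (SE; 1.48-fold; 95% interval 0.26 to 0.88), with a limma adjusted p of 0.164.

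Gamt was also the member measured most often on each array. It had 10 usable spots on 18 arrays and 9 or 8 on the remaining 2, and the SD of the log2 ratio over the spots of an array was 0.021 to 0.113 (median 0.042), below its within-group SD between mice of 0.25. At 25 and 50 mg/kg/day its differences were 0.46 ± 0.15 and 0.32 ± 0.15 (SE), with limma adjusted p-values of 0.636 and 0.735.

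Pemt codes for the enzyme that makes phosphatidylcholine from phosphatidylethanolamine by stepwise methylation, and it was measured by 2 probes. The brighter probe read 4.77, 5.03, 5.11, 4.23 and 4.46 in controls and 5.03, 4.85, 5.24, 5.32 and 5.21 at 75 mg/kg/day, so the groups overlapped. The second probe read 4.56, 4.34, 4.42, 4.16 and 4.38 in controls and 4.99, 4.72, 4.96, 4.56 and 4.96 at 75 mg/kg/day. Its BaP 75 mice all lay above its controls, by a gap of 0.0045 between the nearest 2.

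That second Pemt probe was the only one of the 10 with no overlap between exposed mice and controls. At 75 mg/kg/day it was 1 of 10 probes, while 1.52% of present probes had groups that did not overlap. At 25 mg/kg/day 0 of 10 did so, against 1.21% of present probes, and at 50 mg/kg/day 0 of 10, against 0.815%. The Pemt differences at 75 mg/kg/day were 0.41 ± 0.15 and 0.46 ± 0.13 (SE) for the brighter and second probe, with limma adjusted p-values of 0.325 and 0.18.

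Gnmt codes for glycine N-methyltransferase, an abundant liver enzyme that uses up SAM when methionine is plentiful. Its log2 ratio was 5.23, 4.23, 4.18, 3.68 and 4.68 in the controls, and every exposed mouse lay inside the control range except BaP 25 replicate 6 (5.24). The control mean was 4.40 ± 0.58 (SD, n = 5), and the BaP 75 mean was 4.93 ± 0.15 (SD, n = 5). The difference of 0.53 ± 0.21 (SE; 1.45-fold) had a limma adjusted p of 0.347, and in the liver channel alone it was 0.13.

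The values of Mat1a, the gene for hepatic SAM synthesis, overlapped between controls and every dose. Its controls read 6.67, 5.76, 6.11, 5.56 and 6.15, and the BaP 75 mice read 6.49, 6.24, 6.61, 6.43 and 6.53. Its highest value was in a control, and all exposed mice at 75 mg/kg/day lay inside the control range. The differences were 0.24, 0.34 and 0.41 (SE 0.15 each) at 25, 50 and 75 mg/kg/day, and for the last the limma adjusted p was 0.325. In the liver channel alone they were −0.48, −0.12 and −0.18.

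Ahcy had its highest mean at 50 mg/kg/day. Its log2 ratios at 50 mg/kg/day were 3.10, 2.11, 3.33, 3.00 and 2.70, of which 4 of 5 were above all controls (2.61, 2.39, 2.16, 2.44 and 1.91). The difference there was 0.54 ± 0.21 (SE; 95% interval 0.10 to 0.99; limma adjusted p = 0.697). At 25 and 75 mg/kg/day the differences were 0.01 ± 0.21 and 0.07 ± 0.21 (SE), with 95% intervals of −0.44 to 0.45 and −0.38 to 0.51, and with slide as a block they were −0.08 and −0.02.

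Bhmt codes for the enzyme that remethylates homocysteine with betaine. Its controls read 5.92, 4.94, 5.18, 3.98 and 5.31, and the BaP 75 mice read 5.65, 5.53, 5.72, 5.69 and 5.72. Control 1 was higher than every exposed mouse, and control 4 was lower than every other mouse of the study. The mean difference was 0.60 ± 0.23 (SE; 1.51-fold; 95% interval 0.12 to 1.07), with a limma adjusted p of 0.339. It was 0.33 without control replicate 4 and −0.10 in the liver channel alone. The SD over mice was 0.70 in controls and 0.08 at 75 mg/kg/day.

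The 2 transsulfuration genes had smaller differences. Cbs, whose enzyme joins homocysteine to serine, ranged from 3.07 to 3.97 in controls and from 3.66 to 3.93 at 75 mg/kg/day, a difference of 0.27 ± 0.14 (SE; limma adjusted p = 0.481). Cth, whose enzyme releases cysteine from the product, ranged from 4.02 to 4.51 in controls and from 4.27 to 4.68 at 75 mg/kg/day, a difference of 0.26 ± 0.14 (SE; limma adjusted p = 0.508). For both, the exposed mice overlapped the controls at all 3 doses. In the liver channel alone the differences at 75 mg/kg/day were 0.14 for Cbs and 0.04 for Cth.

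**Figure D3:**
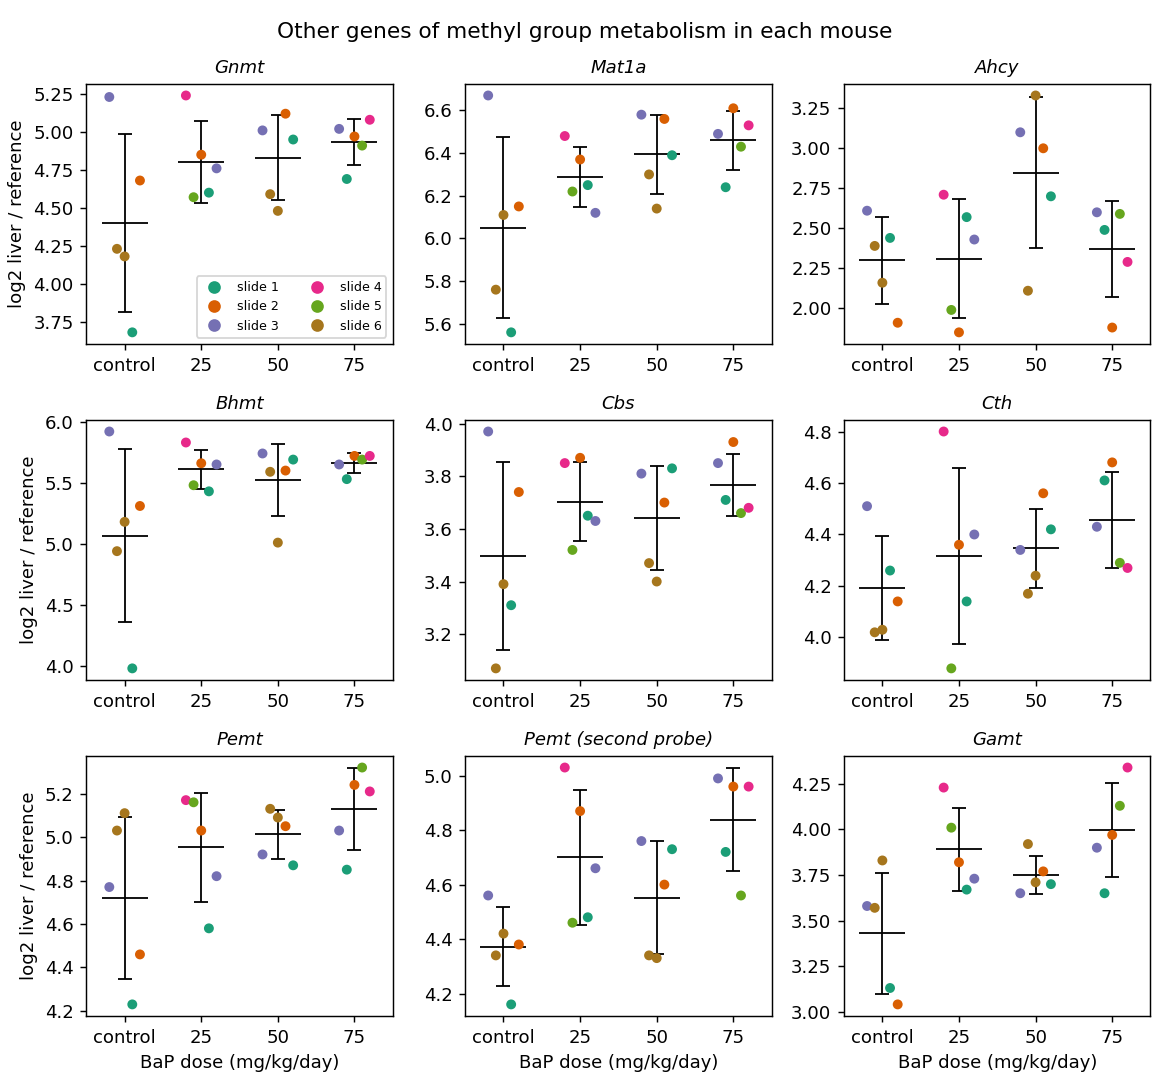
Log2 ratio of liver over reference RNA (y axis, own range in each panel) for the 9 probes of the other 8 genes in each of the 20 mice, by BaP dose in mg/kg/day (x axis); colors mark the slide and bars are group means ± SD (n = 5). Control replicate 4, on slide 1, is the lowest control for 5 of the 9 probes, and control replicate 1, on slide 3, the highest for 7.

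The controls were the most spread group for most of these genes. SDs over the 9 probes were 0.15 to 0.70 in controls, 0.14 to 0.37 at 25 mg/kg/day, 0.10 to 0.47 at 50 mg/kg/day and 0.08 to 0.30 at 75 mg/kg/day. Control replicate 4 was the lowest control for 5 of the 9 probes and replicate 1 the highest for 7. Without replicate 4 the median differences over the 8 genes were 0.15, 0.21 and 0.29 in place of 0.24, 0.33 and 0.41. Without replicate 1 they were 0.36, 0.43 and 0.49.

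Within slides, the outcome depended on which control was present. On slide 1, with control replicate 4, all 9 probes were above their control at 75 mg/kg/day, with a median difference of 0.56. On slide 2, 8 of 9 probes were above it, with a median of 0.45. On slide 3, with control replicate 1, 3 of 9 probes were above it, namely those of Pemt and Gamt, and the median was −0.08. At 25 mg/kg/day the counts were 8, 8 and 3 of 9 on slides 1, 2 and 3, and at 50 mg/kg/day they were 9, 8 and 4 of 9, with 8 of 9 on slide 6.

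**Figure D4:**
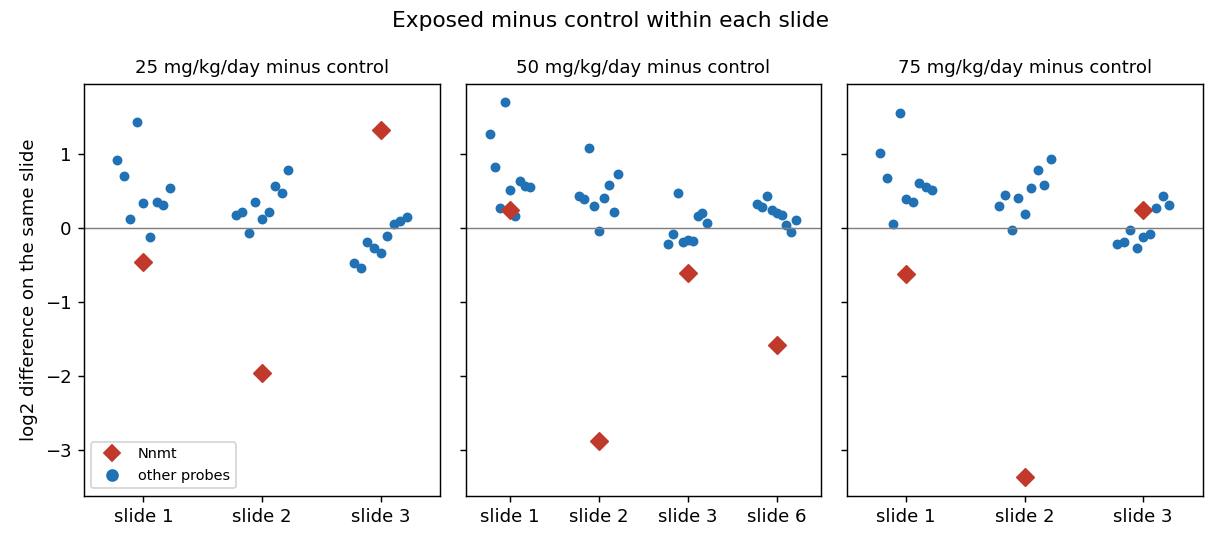
Exposed minus control log2 ratio on the same slide (y axis) for Nnmt (diamonds) and the 9 probes of the other 8 genes (circles), by slide (x axis) and dose (panels); each point compares 1 array with 1 array, or means of 2 with 2 on slide 6. On slide 3 most circles lie below 0 at every dose, and Nnmt at 75 mg/kg/day runs from −3.36 on slide 2 to 0.24 on slide 3.

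On slides 4 and 5, which held BaP 25 and BaP 75 without controls, the other members had no common direction. On slide 4, 3 of 9 probes were higher at 75 than at 25 mg/kg/day (differences −0.54 to 0.11), and on slide 5 all 9 were (0.11 to 0.60). On slides 1, 2 and 3 the mean of the 8 genes was higher at 75 mg/kg/day: 4.47, 4.63 and 4.62, against 4.36, 4.48 and 4.44.

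Hepatocyte marker genes varied together with these 8 genes. All 9 hepatocyte markers also had mean log2 ratios above the control mean at each dose, but in the liver channel alone 4, 4 and 3 of 9 did. Their median differences were 0.32, 0.27 and 0.40 with the reference and −0.01, −0.01 and −0.06 in the liver channel alone. Limma called 0 of them, and at an unadjusted p below 0.05 gave 0, 0 and 5 of 9, against 7.81, 6.7 and 11.2% of present probes. Their mean log2 ratio ranged from 4.61 to 5.83 in controls and from 5.37 to 5.89 at 75 mg/kg/day, and control replicate 4 was the lowest of all 20 arrays for both gene groups. Over the 20 arrays the mean of the 8 genes and the mean of the markers had r = 0.88, and r = 0.78 without the 2 arrays farthest from the median of the marker mean. The same arrays, normalization and reference channel stand behind both means. For Nnmt and the marker mean, r was −0.29, and −0.48 without those 2 arrays. Endothelial markers also lay above their control means, 9 of 10 at each dose, with median differences of 0.35, 0.29 and 0.40, and in the liver channel alone 9, 10 and 9 of 10 did, with medians of 0.25, 0.25 and 0.36. Of the 10, limma called 1, Lyve1 at 75 mg/kg/day (2.23 ± 0.40, SE; adjusted p = 0.0189), against 0.135% of present probes. Of 9 Kupffer cell markers, 8, 8 and 9 lay above their control means, and 6, 8 and 5 in the liver channel alone. Limma called 1 of the 9, Marco at 75 mg/kg/day (2.19 ± 0.30, SE; adjusted p = 0.00148). The part of the makeup of the tissue in the differences of the 8 genes was not tested.

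**Figure D5:**
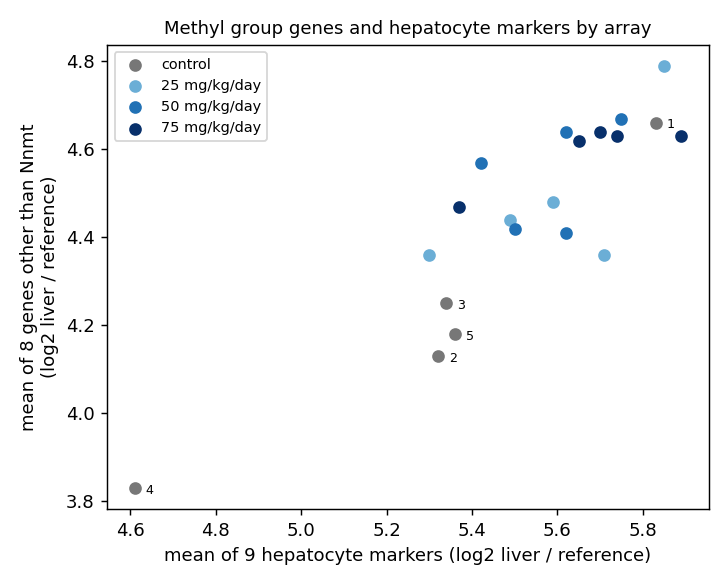
Mean log2 ratio of the 8 genes other than Nnmt (y axis) against the mean log2 ratio of 9 hepatocyte markers (x axis), 1 point per array, shaded by dose, with replicate numbers on the controls. Control replicate 4 is lowest on both axes (3.83 and 4.61), and control replicate 1 (4.66 and 5.83) lies among the exposed mice.

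Nnmt is also known for its expression in fat, and adipocyte markers were read beside it. Of 8 such genes, 3 were well above background on all 20 arrays (Cidec, Plin4 and Lipe), and Plin1 and Lep were so on 0 arrays. The mean log2 ratio of the adipocyte list ranged from 0.04 to 0.40 in controls and from 0.07 to 0.48 at 75 mg/kg/day, over 6 genes with a present probe. The 3 detected genes differed among themselves at 75 mg/kg/day: Plin4 was at −0.50 ± 0.15 (SE; limma adjusted p = 0.237), with 4 of 5 mice below all controls, Cidec at 0.25 ± 0.20 (SE) and Lipe at 0.16 ± 0.13 (SE). At 50 mg/kg/day Plin4 was at −0.55 ± 0.15 (SE; limma adjusted p = 0.58). The part of fat RNA in the Nnmt values was not tested.

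The 8 other genes resembled each other more than they resembled Nnmt. Among their 28 pairs, r over the 20 arrays ran from −0.01 to 0.93 with a median of 0.51, and 24 pairs were above 0. Their r to Nnmt ran from −0.55 for Gamt to −0.06 for Cbs, and with dose group means removed from −0.40 for Gamt to 0.25 for Cbs. These correlations are descriptions over arrays that share dose groups, slides and the reference RNA.

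Among the 12808 genes compared, those whose log2 ratios followed Nnmt most closely over the 20 arrays were Syt12 (r = 0.80), Gpat3 (r = 0.78), Fosl1 (r = 0.77), Skap1 (r = 0.77) and Lrfn4 (r = 0.76). Those running most opposite were Tgfbr2 (r = −0.78), Icam2, Pltp and Araf (r = −0.77 each) and Mfap4 (r = −0.76). Without the 2 arrays farthest from the Nnmt median, r in these orders was 0.69, 0.58, 0.67, 0.57 and 0.64. For the opposite genes it was −0.63, −0.61, −0.63, −0.66 and −0.72. All are extremes picked from 12808 genes over 20 arrays, with no test. Since the 4 dose groups differ in mean Nnmt, part of each value comes from dose. With group means removed, Coro1a and Rbms2 (r = 0.76 each), Ccn1 (r = 0.75), Sh3pxd2b (r = 0.74) and Stac2 (r = 0.72) were most like it. At the other end were Nos3 (r = −0.75), Grid1 (r = −0.68), Olfr1182 (r = −0.67), and Zfp689 and Mfap4 (r = −0.66 each). Without the 2 arrays farthest from the median of these Nnmt values, r was 0.64, 0.61, 0.69, 0.57 and 0.67 for the like genes. For the opposite ones it was −0.68, −0.59, −0.49, −0.45 and −0.65. Stac2, Grid1 and Olfr1182 were well above background on 14, 8 and 1 of the 20 arrays, the other named genes on 18 to 20. Mfap4 was the only gene in both sets of 10.

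The wider pathways around the methyl cycle were read through 7 lists with 118 genes, of which 104 had a present probe. Limma called 0 of the 104 at any dose, and at an unadjusted p below 0.05 it gave 6, 11 and 11 genes at 25, 50 and 75 mg/kg/day, when 7.81, 6.7 and 11.2% of present probes passed that limit. At 75 mg/kg/day 60 of the 104 were above the control mean, and 50 in the liver channel alone. The lowest adjusted p at that dose was 0.115, for Tst, which codes for the sulfur-transferring enzyme rhodanese.

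Among 17 further genes of methionine, transsulfuration and glutathione metabolism, the median difference at 75 mg/kg/day was 0.07 (0.02 in the liver channel alone). It was largest for Gclc, the catalytic subunit that starts glutathione synthesis, at 0.49 ± 0.18 (SE), and lowest for Ahcyl2, a relative of Ahcy, at −0.29 ± 0.13 (SE). Tst, named after its values were seen, had 5 of 5 BaP 75 mice above all controls, with a difference of 0.42 ± 0.10 (SE). It was 1 of the 104 listed genes without overlap at that dose, against 1.52% of present probes. The 20 folate cycle genes had a median of 0.10, with Ftcd, which links histidine breakdown to folate, at 0.49 ± 0.25 (SE).

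Choline and betaine metabolism, which supplies the methyl group used by Bhmt, was covered by 15 genes with a median difference of 0.12 at 75 mg/kg/day (0.01 in the liver channel alone). Its lowest value was that of Chpt1, a phosphatidylcholine synthesis gene, at −0.25 ± 0.14 (SE). Chka, choline kinase alpha, was named after its values were seen. At 25 mg/kg/day 5 of 5 mice were below all controls, with a difference of −0.83 ± 0.24 (SE; limma adjusted p = 0.636). Only 1 of the 104 listed genes, Chka, had no overlap at that dose, against 1.21% of present probes. At 75 mg/kg/day the Chka difference was −0.22 ± 0.24 (SE).

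Other small molecule methyltransferases and creatine genes numbered 9, with a median difference of 0.29 at 75 mg/kg/day (0.17 in the liver channel alone) and 7 of 9 above 0. Inmt, an indolamine methyltransferase, was at the upper end (0.56 ± 0.20, SE), and Pnmt and Tpmt were at the lower end (−0.12 each). Of 19 genes for the making and use of NAD and nicotinamide, the substrate side of Nnmt, the median was 0.05, and −0.06 in the liver channel alone. Tdo2, which starts tryptophan breakdown toward NAD, was highest at 0.42 ± 0.17 (SE), and Nmnat3, an adenylyltransferase that completes NAD, was lowest at −0.36 ± 0.16 (SE). Nampt, which recycles nicotinamide to NAD and so shares its substrate with Nnmt, had a difference of 0.03 ± 0.18 (SE).

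The polyamine and methylthioadenosine list, which holds another use of SAM, had 15 genes and a median of −0.05 (−0.11 in the liver channel alone), from −0.28 for Odc1 to 0.26 for Mri1. The 9 DNA methylation genes had a median of −0.20, or −0.04 in the liver channel alone, with 3 of 9 above 0, and ran from −0.38 ± 0.24 (SE) for Dnmt3b to 0.42 ± 0.27 (SE) for Dnmt3a, both de novo DNA methyltransferases.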

How the data were processed

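Liver RNA of 20 mice was measured on 20 two-color Agilent arrays over 6 slides, at most 4 to a slide. The authors deposited median spot and background intensities for the liver (Cy5) and reference (Cy3) channels, extracted with Feature Extraction (version 10.1.1.1 per the file headers) without normalization, together with background-subtracted, dye-normalized intensities of the same software. The authors' own LOWESS-normalized log2 ratios (liver to reference) were deposited too. The deposited marks of other kinds flag spots as outliers, saturated or well above background, and 0 non-control spots were saturated.

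Median intensities were corrected with normexp (offset 50) and loess-normalized within each array in limma 3.58.1 (R 4.3.3), and spots of a probe were averaged. Presence of a probe required a liver signal above that of 153 negative control spots (their mean after a 5% trim plus 3 trimmed SDs) on at least 4 of 5 arrays of a group. The resulting log2 ratios had r = 0.994 to 0.996 with the authors' ratios. One limma model over the 4 groups compared each dose with control, with Benjamini-Hochberg adjustment over 27346 probes. The procedure was tested on simulated data with independent noise, no slide effects and planted differences larger than those of the members other than Nnmt. That test therefore does not bear on differences of their size. All 20 arrays were kept, although the study removed 1 array it does not name.

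Probes were assigned through their transcript accessions, and the probe with the highest mean intensity represented a gene. The rule for named genes took all members, any called gene of the wider lists and the largest rise and fall of each list at 75 mg/kg/day, plus the 5 genes most and least like Nnmt. Some genes that the rule takes are not reported here. Members and lists were chosen with earlier results of these data known. The number of arrays limits the precision. Alternatives covered 29 settings: other signals and normalizations, presence filters, slide as a block, each dose with control alone, means over probes, and leaving out each array. The series text gives 24 mg/kg for the lowest dose, and the 25 mg/kg of the sample labels was used.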

Additional observations from a re-analysis of the deposited data

Results flagged for a closer look

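For Bhmt, 1 of 40 groups of probe values checked held a sample far from the rest: BaP 50 replicate 13 had a log2 ratio of 5.01, while the nearest of the other 4 mice had 5.59 and the highest 5.74. The gap took up 0.788 of the group's range. Chance alone flags about 1 in 20 groups.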

How the results depend on the processing

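Over the 29 alternatives, 0 members were called at 25, 50 or 75 mg/kg/day, with Nnmt at 75 mg/kg/day left untested. The lowest adjusted p of any member was 0.065, for Mat1a at 75 mg/kg/day. The Nnmt difference at 75 mg/kg/day ran from −1.95 to −1.26, given as a description because the set was picked on it, and at 50 mg/kg/day from −1.49 to −0.89. At 25 mg/kg/day it ran from −0.59 to 0.04, the latter without control replicate 5. For the other 8 genes, 16 of 696 refitted differences had the opposite sign, 7 of them for Ahcy at 25 mg/kg/day. Many of these refits could not change a difference: leaving out an array of another dose, other presence filters, and a dose with control alone. The count therefore does not measure how stable the signs were. The liver channel alone left 3 of 8 genes above the control mean at 25 mg/kg/day in place of 8, and gave Mat1a −0.48, −0.12 and −0.18 and Bhmt −0.24 and −0.10 (25 and 75 mg/kg/day). At 75 mg/kg/day it gave 0.13 for Gnmt, 0.14 for Cbs, 0.04 for Cth, 0.02 for Ahcy, 0.46 for Gamt and 0.58 for Pemt. With the reference these were 0.53, 0.27, 0.26, 0.07, 0.57 and 0.41. The cause was not tested. The groups share no replicate numbers, so matching was by slide, whose block and same-slide differences stand in the results. With 5 arrays a group, the 95% interval of every tested member spans more than the size of its difference.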
